A study of Arabidopsis thaliana with 11 samples.

Results

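AT1G67105 is a locus on chromosome 1 that RefSeq annotates as noncoding RNA, and it is described here with the genes on either side of it, LBD40 (AT1G67100) and CYP735A2 (AT1G67110). These are 3 of the 28244 loci in the deposited allele count table. Both neighbours are also among the 27588 genes of the total count table, whereas AT1G67105 is in the allele table only. AT1G67105 was chosen by its Col-0 reads in the comparison of h1/H1 with H1/H1 endosperm, so its values in that comparison are a description and carry no test. The neighbours were selected on position.

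RNA-seq was done on hand-dissected endosperm and embryo of F1 seeds, with the mother written first in each cross, at 8 days after the cross. H1/H1 seeds came from wild-type Col-0 crossed with Ler. The h1/H1 seeds came from the homozygous triple mutant (h1.1-1, with h1.2-2 and h1.3-1) crossed with Ler. This mutant combines T-DNA insertions in Col-0, in or near the genes of the linker histones H1.1, H1.2 and H1.3. The paternal genome is therefore wild-type Ler in every seed, and an h1/H1 endosperm still holds functional paternal H1 copies. The series holds 11 samples, and the group of 6 libraries is known from column names. Libraries A and B are H1/H1 endosperm (2 of the 3 such samples), C, D and E are h1/H1 endosperm, and F is an H1/H1 library named as embryo. Below, values from wild-type mothers are those of A and B, in that order, and values from mutant mothers those of C, D and E, all endosperm. The RNA sets were independent by the methods, so p-values measure the spread between them.

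Total counts ranged from 13726579 to 20939575 per library, and reads that the deposited allele table assigns to Col-0 from 705347 to 1016576. Of the 3 targeted genes, H1.3 was read 14 and 9 times with wild-type mothers, never with mutant mothers, and 10 times in F. H1.1 and H1.2 were lower but stayed detected with mutant mothers. H1.1 had 3481 and 2047 total counts from wild-type mothers and 592, 1190 and 1203 from mutant mothers. H1.2 had 1484 and 996 against 314, 341 and 331. The markers did not settle the tissue of library F. Its 8 embryo meristem markers summed to 7.04 CPM (counts per 1000000 of effective library size), the lowest of the 6 libraries (7.04 to 17.2), with ESR1 at 0 in every library. CUC1 carried this sum (4.51 CPM in F), whereas STM and WOX5, with 12 and 10 counts, were highest in F, and in Col-0 reads the list summed highest in F (3.86 CPM, against 0 to 2.37). Its 10 endosperm markers summed to 158 CPM, the highest (70.5 to 158). PHE1, HDG9, FWA, HDG8 and FIS2 were highest in F, whereas MEA and RGE1, at 4.81 and 47.8 CPM, were lowest in F. Library F held 1016576 Col-0 and 221716 Ler reads, a maternal excess that was not compared with that of the endosperm libraries. The series also holds an H1/H1 endosperm sample that no column names, and whether F is that sample was not tested. F was kept outside both endosperm groups and is called library F. Hand-dissected endosperm also carries seed coat, which is maternal tissue. The 9 seed coat markers were all detected in every library and summed to 4070 and 4444 CPM from wild-type mothers and to 6546, 5658 and 4466 CPM from mutant mothers, against 4517 in F. The endosperm groups thus did not overlap in their seed coat sum, though B and E were nearly equal. TT10 made up most of the sum in every library. It was at 2370 and 4101 CPM from wild-type mothers and 4545, 3973 and 3321 from mutant mothers, so its groups overlapped. Only TT8, 1 of the 9 markers, had groups that did not overlap, which was so for 16% of all 18951 genes tested. Of the 9, 7 had a log2 fold change above 0 and 2 below.

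Linker histone H1 binds the nucleosome and the DNA that enters and leaves it, and it helps to compact chromatin. Noncoding transcripts lie between protein-coding genes throughout the Arabidopsis genome, and many have no known role. The role of AT1G67105 is not annotated in RefSeq. LBD40 belongs to class II of the LATERAL ORGAN BOUNDARIES DOMAIN proteins, a plant-specific family of transcription factors. CYP735A2 is a cytochrome P450 that hydroxylates the side chain of cytokinin nucleotides, the step that leads to trans-zeatin type cytokinins.

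On TAIR10.1, AT1G67105 lies on the plus strand at chr1:25057479-25058264, as a single exon of 786 bases with a GC content of 41.3%, against 36% over the nuclear chromosomes. It is intergenic. LBD40 lies before it on the same strand at chr1:25053673-25054864, with a gap of 2614 bases. CYP735A2 lies after it on the minus strand at chr1:25061673-25065446, with a gap of 3408 bases, so that AT1G67105 and CYP735A2 point towards each other. No annotated gene overlaps AT1G67105 on either strand. The 2 gaps are AT-rich, with a GC content of 30.2% on the LBD40 side and 28.1% on the CYP735A2 side.

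The window around the annotated start is shown because it is where transcription of AT1G67105 would begin on this annotation. It spans 250 bases before to 50 bases from the start (RefSeq TAIR10.1, chr1:25057229-25057528, plus strand), and capitals mark the matches to TATAAA and CCAAT.
AT1G67105 start window: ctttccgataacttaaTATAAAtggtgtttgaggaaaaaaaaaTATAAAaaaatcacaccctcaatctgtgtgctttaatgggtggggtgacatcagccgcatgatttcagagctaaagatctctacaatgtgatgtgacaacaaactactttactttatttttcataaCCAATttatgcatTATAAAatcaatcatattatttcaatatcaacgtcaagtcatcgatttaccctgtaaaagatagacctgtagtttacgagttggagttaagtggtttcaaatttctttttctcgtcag
The 3 TATAAA matches begin 234, 207 and 68 bases before the start and the CCAAT match begins 81 bases before it, with no overlap between them. TATAAA was found on either strand in 48.8% and CCAAT in 50.5% of the 37878 windows of the same length at annotated nuclear genes, so both are common. The G-box CACGTG (6.47% of windows), the LBD motif GCGGCG (2.36%), the telobox AAACCCTA (6.18%) and the heat shock element GAANNTTC (11.4%) had no match on either strand of the AT1G67105 window. The LBD40 window held 2 TATAAA matches and none of the other motifs. The CYP735A2 window held 1 TATAAA match and 2 matches to GAANNTTC, 197 and 187 bases before its start, which overlap no other match. These are letter matches only.

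The longest open reading frame on the sense strand of AT1G67105 is shown because it bears on the annotation as noncoding. Capitals mark its start and stop codons (RefSeq TAIR10.1, chr1:25057975-25058076, plus strand).
AT1G67105 longest open reading frame: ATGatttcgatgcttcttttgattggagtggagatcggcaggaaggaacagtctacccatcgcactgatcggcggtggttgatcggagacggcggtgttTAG
It is 102 bases long, begins at base 497 of the transcript and has 33 codons before the stop. There are 7 frames with a start and a stop codon in all 786 bases, counting nested starts.

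AT1G67105 is not unique in sequence. A blastn search found 15 other places in the genome that resemble part of it, with an identity of 65.1% to 86.3%, and 8 of them align over more than 300 bases. The longest, at chr3:16839821-16840533, aligned over 726 bases with 72.6% identity and overlaps AT3G45820. The longest run of bases shared without a mismatch with any other place was 22, so a longer read from AT1G67105 has no exact match elsewhere in the Col-0 reference. Whether this holds for the TAIR8 Col-0 and Ler cDNA that the authors mapped to was not tested.

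Col-0 reads come from the mother, either through the maternal copies in the endosperm or through seed coat. AT1G67105 had 0 and 1 Col-0 reads from wild-type mothers (libraries A and B). It had 125, 95 and 157 from mutant mothers (C, D and E). Library F had 0. The 3 h1/H1 libraries were all high and close to each other, the H1/H1 libraries were at or next to 0, and the groups did not overlap.

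Normalised, the mean level was 163 ± 23.2 CPM of Col-0 reads with mutant mothers (SD, n = 3) and 0.487 ± 0.688 CPM with wild-type mothers (SD, n = 2). Before normalization, as reads per 1000000 Col-0 reads of each library, the values were 165 in C (exact 95% binomial interval 137 to 196), 135 in D (109 to 165) and 186 in E (158 to 218). These intervals cover counting error only. The intervals of libraries A and F, with no read, reached 3.99 and 3.63 per 1000000 (a limit of 3 counts gives 3.24 and 2.95). The summed h1/H1 reads, 377 against 1, give a ratio of 322 per effective read. Its counting interval, 57.5 to 12760, pools the reads of the libraries, leaves out the spread between them, and is no test. Within h1/H1 endosperm the highest library exceeded the lowest 1.33-fold.

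**Figure D1:**
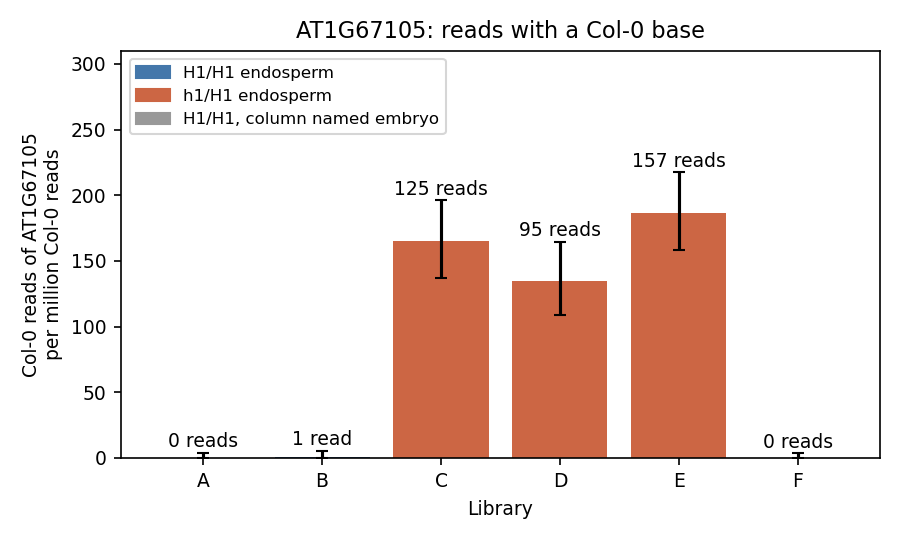
Bars give the Col-0 reads of AT1G67105 per 1000000 Col-0 reads in each library, with exact 95% binomial intervals and the read counts above them. The 3 h1/H1 endosperm libraries sit between 135 and 186 per 1000000, and the H1/H1 libraries A, B and F at 0 to 0.987.

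In h1/H1 endosperm the locus was well above the middle of the detected loci in Col-0 reads. It ranked 1618 in C among 14640 loci with a Col-0 read, 1893 in D among 15143 and 1337 in E among 15769, where the median detected locus had 17, 14 and 17 reads. Among 315 loci annotated as ncRNA or lncRNA in the allele table it had the 9th highest mean level in h1/H1 endosperm. None of these 315 is in the total count table, so the total level of AT1G67105, and any reads without a Col-0/Ler difference, are not measured here.

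Ler reads, which come from the father, were taken from library F only. AT1G67105 had 0 of 221716 Ler reads there, which allows up to 13.5 per 1000000 by the limit of 3 counts, and 0 of 1016576 Col-0 reads. Ler reads of the endosperm libraries were not used here, so no maternal share is given for AT1G67105.

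Of 9981 loci with a mean of at least 10 Col-0 reads, 1 (0.01%) was within the limits of the edgeR fit (adjusted p limit 0.05, at least a 2-fold change), and this is AT1G67105 itself, chosen on these reads, so the count restates that choice and tests nothing. It passed the filter on low counts only through the h1/H1 libraries. The loci next in line, just outside the limit, were AT5G51440, with 238 and 271 Col-0 reads from wild-type mothers and 29, 11 and 7 from mutant mothers, and H1.2 (AT2G30620), with 581 and 410 against 99, 64 and 46. Both were lower in h1/H1 libraries, whereas AT1G67105 was higher. The seed coat markers given above, in Col-0 reads, summed to 5302 and 3728 CPM from wild-type mothers and to 6085, 6764 and 5345 from mutant mothers. Their part in the AT1G67105 values was not tested, and in these bulk tissues more cells of a type and more RNA per cell cannot be told apart.

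The other noncoding loci are given beside AT1G67105 as a description. It was chosen on these same reads, so its distance from them restates that choice and tests nothing. Among the 100 others that passed the filter, the difference of mutant from wild-type mothers on the scale of log2(mean CPM + 1) had a median of -0.08, with 44 above 0 and 56 below, while that of AT1G67105 was 6.79. The highest of the 100 was AT5G01595, at 1.06, with 24 and 10 reads from wild-type mothers and 44, 21 and 22 from mutant mothers. The lowest was AT5G05435, at -2.15, where library B alone was high, with 47 reads against 7 in A and 1, 5 and 6 from mutant mothers.

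**Figure D2:**
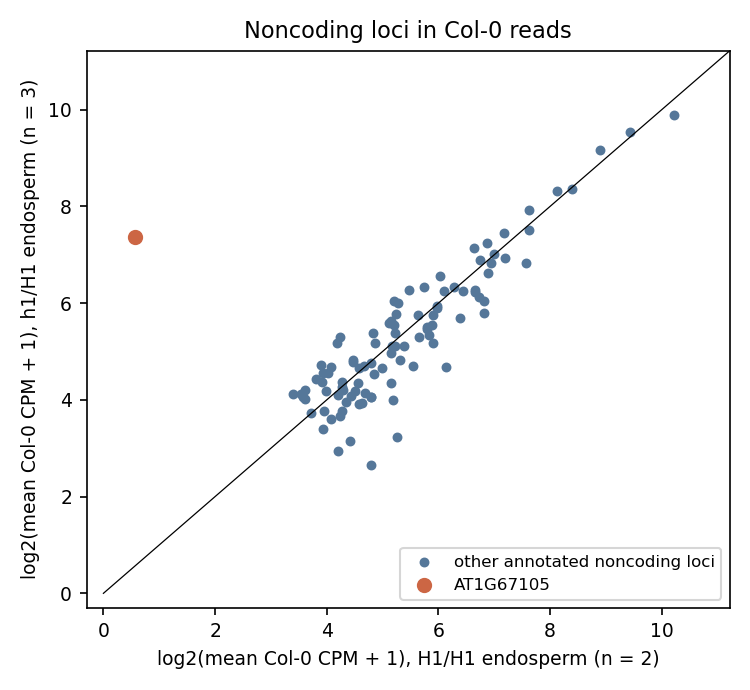
Each point is an annotated noncoding locus with a mean of at least 10 Col-0 reads, plotted by its mean level as log2(CPM + 1) in H1/H1 (n = 2) and h1/H1 endosperm (n = 3), with the line of equal levels. AT1G67105, chosen on these reads, lies 6.79 above its H1/H1 value, while the 100 other loci lie between -2.15 and 1.06 from theirs.

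Few of the loci that resemble AT1G67105 in sequence could be read. The matches touch 13 annotated genes, of which 7 are in the allele table. The other 6, and the 3 matches outside genes, were not measured in Col-0 reads. AT3G45820, the longest match, had 0 and 2 Col-0 reads from wild-type mothers, 0 in each library from mutant mothers, and 1 in F. AT1G67365, a lncRNA on chromosome 1 that matches over 409 bases, had 7 and 10 reads from wild-type mothers, 5, 9 and 5 from mutant mothers, and 2 in F. AT2G13547, which matches over 656 bases, had 0 and 3 reads from wild-type mothers and 0, 1 and 0 from mutant mothers. None of these 3 exceeded 10 reads in any library. AT3G19960 and AT1G33102 had no Col-0 read. In total counts AT3G19960 had at least 935 in every library and AT1G33102 had 7 to 30, so the absence of Col-0 reads gives no level for them. AT1G64790 and AT4G07410, long genes that match over a short stretch, had at least 53 Col-0 reads in every library of both groups.

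Over the 6 libraries, the loci whose Col-0 reads followed AT1G67105 most closely on the scale of log2(CPM + 1) were COBL8 (Pearson's r = 0.995), CYP77A4, CYP96A8, CESA10, BGAL8, AT5G13720, SLD1 and AT5G18360, the last with r = 0.967. These correlations rest on 6 points that share the libraries and the split that chose AT1G67105, and 76 of 9980 loci had r above 0.9. The size of the difference varied widely. CYP96A8, a cytochrome P450, was at 4.32 and 15.6 Col-0 CPM from wild-type mothers and at 252, 89.5 and 274 from mutant mothers, a ratio of means of 20.6. COBL8, a COBRA-like cell wall protein, was at 18.4 and 20.4 CPM from wild-type mothers and at 79.3, 64.6 and 71.0 from mutant mothers, a ratio of 3.69. AT5G13720 and AT5G18360 followed with ratios of 3.36 and 2.15. CESA10, a cellulose synthase subunit, differed by a ratio of 1.37 only, and CYP77A4, BGAL8 and SLD1 by 1.43, 1.28 and 1.38.

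The neighbours give the level of transcription on either side. LBD40 had 849 and 1178 total counts from wild-type mothers, 535, 888 and 617 from mutant mothers, and 864 in F. Library D was the highest, at 68.6 CPM, and libraries C and E, at 37.4 and 37.2 CPM, the lowest, with A and B between them at 44.7 and 60.9, so the groups overlapped. The means were 47.7 ± 18.1 CPM with mutant mothers (SD, n = 3) and 52.8 ± 11.5 CPM with wild-type mothers (SD, n = 2).

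The log2 fold change of LBD40 in h1/H1 relative to H1/H1 endosperm was -0.15 (standard error 0.34, 95% interval -0.93 to 0.64, edgeR adjusted p = 1). By the same limits 0% of 18951 genes were called, with 706 at an unadjusted p under 0.05 and 50 called by DESeq2. As a fold the change of LBD40 is 0.904, with an interval from 0.525 to 1.56, so any fold within these bounds is compatible with these libraries. The direction turned without library B, to 0.096, without C, to 0.0029, and without E, to 0.0052.

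CYP735A2 was at the limit of detection. It had 0 and 3 total counts from wild-type mothers, 1, 0 and 1 from mutant mothers, and 0 in F. It did not pass the filter on low counts, no fold is given with both groups at or under the floor of 3 counts, and a difference was not detectable at this depth. Its close homologue CYP735A1, which carries out the same step, had 26 and 53 counts from wild-type mothers and 13, 35 and 37 from mutant mothers.

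Neither neighbour had a read assigned to a parent in the columns used, which leave out the Ler reads of the endosperm libraries. LBD40 and CYP735A2 had no Col-0 read in any of the 6 libraries and no Ler read in F. CYP735A2 had 5 total counts over these libraries, whereas LBD40 had at least 535 in each. Such loci were not rare. Of 6533 genes with a mean of at least 500 total counts that are in the allele table, 798 (12.2%) had no assigned read in the columns used.

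The wider stretch showed no called gene in total counts. Within 25000 bases on either side there are 9 other annotated genes, of which 7 are in the total count table and 6 passed the filter. None of the 6 was called by edgeR, against 0% of all genes tested, or by DESeq2, and none had an unadjusted p under 0.05 in edgeR. Their median log2 fold change was -0.13, against -0.02 over all genes. No gene of the 6 had groups that did not overlap, which was so for 16% of all 18951 genes.

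RBCS1A, which encodes a small subunit of Rubisco, was the most abundant, at 1364 and 1181 CPM from wild-type mothers and 1918, 1724 and 1186 from mutant mothers. It differed by 0.34 on the log2 scale (standard error 0.32, edgeR adjusted p = 1). It belongs to a family of near-identical genes whose reads may have been split by the counting. ABA4, which acts in neoxanthin synthesis on the way to abscisic acid, was at 10.4 and 20.1 CPM from wild-type mothers and 11.8, 10.5 and 15.6 from mutant mothers. AT1G67120, the homologue of the yeast ribosome assembly factor MDN, was at 44.4 and 36.7 CPM from wild-type mothers and 38.3, 27.3 and 46.6 from mutant mothers, with library F the highest at 65.5. DIN9, a phosphomannose isomerase, had 30 counts or fewer in every library and the widest interval, with a log2 fold change of -0.82 (standard error 0.94). AT1G67060 was at 17.1 and 25.3 CPM from wild-type mothers and 20.8, 22.9 and 24.6 from mutant mothers.

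**Figure D3:**
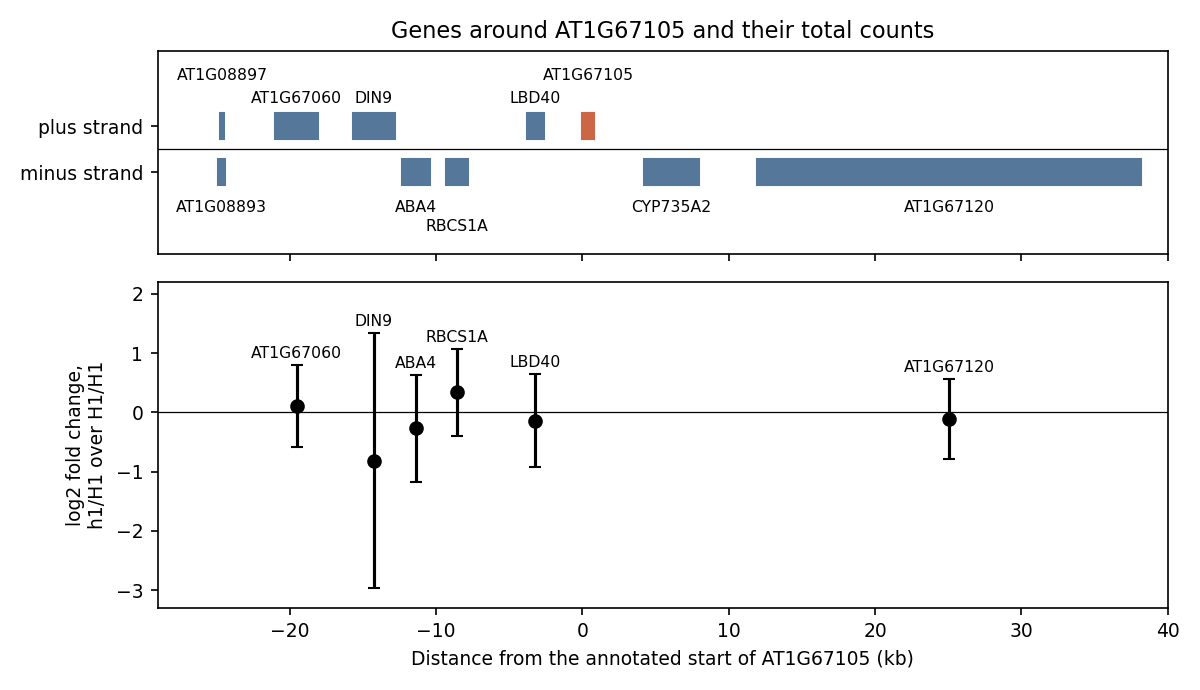
The upper panel shows the annotated genes by strand and by distance from the start of AT1G67105, and the lower panel the log2 fold change of total counts (h1/H1 over H1/H1 endosperm) with 95% intervals for the 6 that passed the filter. Every interval spans 0, and the widest belongs to DIN9.

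In Col-0 reads, 2 genes of this stretch had more than a handful of reads in every library. ABA4 had 28 and 51 from wild-type mothers, 37, 29 and 37 from mutant mothers, and 46 in F, which also had 9 Ler reads. AT1G67120 had 12 and 13 from wild-type mothers, 8, 12 and 15 from mutant mothers, and 34 in F, with 14 Ler reads. For both genes the groups overlapped per Col-0 read of the library, while those of AT1G67105, with at most 1 read against at least 95, did not.

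The class II LBD genes of the same family as LBD40 were examined next. LBD37, LBD38 and LBD39 are known as repressors of anthocyanin and nitrogen response genes, and LBD41 as a gene induced by low oxygen. All 6 passed the filter and none was called, beside 0% of all 18951 genes tested. Of the 6, 3 lay above 0 and 3 below, with a median log2 fold change of -0.05, against -0.02 over all genes. LBD42 had 3592 and 3722 counts from wild-type mothers and 3561, 3572 and 3029 from mutant mothers, a log2 fold change of 0.31 (standard error 0.27). LBD41 was at 133 CPM in A but 49.3 in B, and at 58.0, 74.1 and 68.5 from mutant mothers, with library F at 180, so that the H1/H1 libraries differed more from each other than the groups did. LBD37, LBD38 and LBD39 had 54 counts or fewer in every library.

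**Figure D4:**
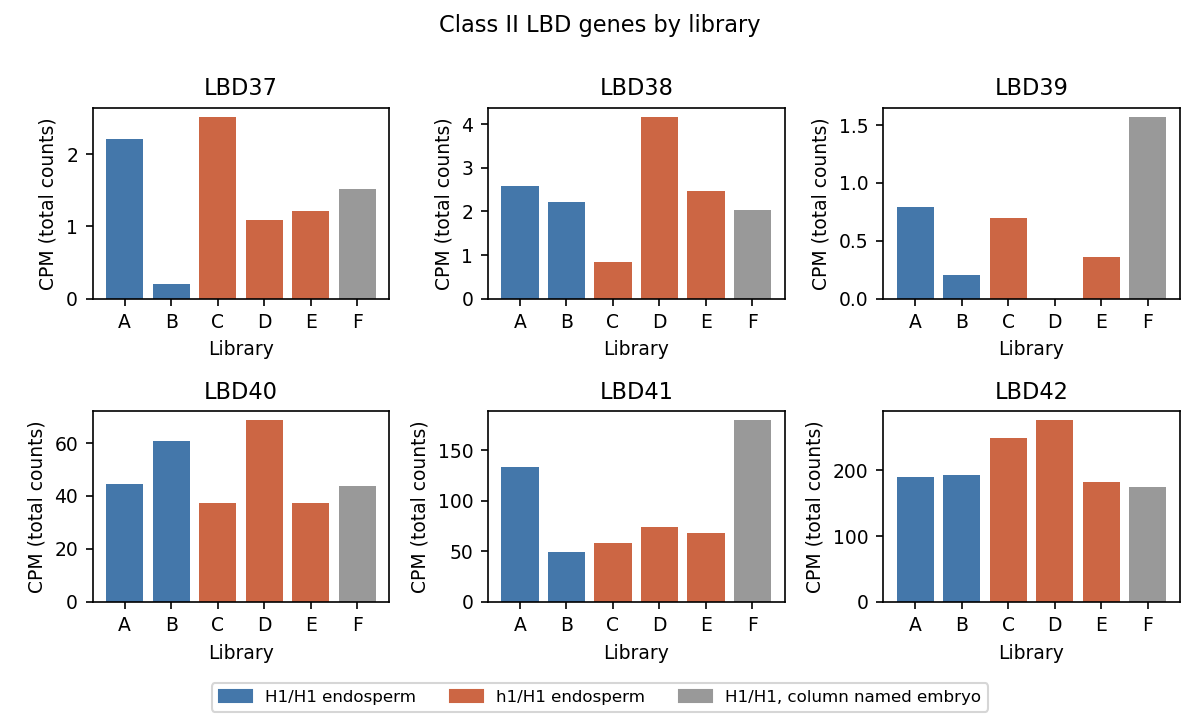
Bars give the CPM of total counts of the 6 class II LBD genes in each library, with a separate scale for each gene. LBD40 is highest in h1/H1 library D, at 68.6, and lowest in C and E, and LBD41 is highest in F, at 180.

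The pathway of CYP735A2 was examined through 29 cytokinin genes. Most of the listed isopentenyltransferases (IPT) make the first cytokinin nucleotide, and the CYP735A enzymes hydroxylate it. LOG enzymes release the active base, cytokinin oxidases (CKX) degrade it, and 3 histidine kinases perceive it. Of the 29, 15 passed the filter and none was called. With a median log2 fold change of -0.26, 12 lay below 0 and 3 above. Over all genes the median was -0.02, with 9828 below 0 and 9113 above. With the class II LBD genes this makes 0 of 21 called by edgeR and by DESeq2, which called 0 and 50 over all genes. Of the 21, 1 had an unadjusted p under 0.05, beside 706 of all 18951 genes. Groups did not overlap for 5 of the 21, beside 16% of all genes. All 5 were cytokinin genes (5 of 15, against 0 of 6 class II LBD genes).

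The 1 gene at an unadjusted p under 0.05 was IPT1, named after its values were seen. It had 21 and 41 counts from wild-type mothers, 3, 3 and 9 from mutant mothers, and 19 in F. In the edgeR fit over all genes it differed by -2.25 on the log2 scale (standard error 0.85, adjusted p = 1, unadjusted p = 0.0293). IPT6 was the most abundant of the IPT genes in counts, with 750 and 1767 from wild-type mothers and 493, 867 and 548 from mutant mothers. The other 4 genes with groups that did not overlap were CKX2, CKX3, CKX5 and the receptor gene HK3. Each was lower in h1/H1 libraries by 0.27 to 0.65 on the log2 scale. Of the 6 CKX genes that passed the filter, 3 lay below 0 and 3 above, with a median log2 fold change of -0.04. HK3 was at 134 and 152 CPM from wild-type mothers and 95.02, 111 and 125 from mutant mothers, a log2 fold change of -0.38 (standard error 0.24, edgeR adjusted p = 1). Of the LOG genes only LOG8 passed the filter, at -0.57 (standard error 0.41), and LOG2 and LOG6 had 0 counts in all 6 libraries.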

How the data were processed

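Per the labels and the methods, adapters were trimmed with fastp and reads assigned to TAIR10 transcripts with Salmon 1.9.0, and the authors deposited whole read counts per gene under a name that calls them normalized. The deposited allele counts are reads mapped to TAIR8 Col-0 and Ler cDNA and assigned by bases that differ. The step from transcripts to genes is not given in the sources used here. Groups were read from column names in the allele table. In all, 10 per-sample columns were not used, of which 5 have names that give no group. The other 5 hold Ler reads, a second measure of the same endosperm libraries. They were left out by choice, so that no group had more columns than samples.

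Counts were compared with edgeR 4.0.16 (quasi-likelihood test, TMM on full library totals, mean of at least 10 counts, Benjamini-Hochberg over all genes) under R 4.3.3. Library F formed its own group. CPM are counts per 1000000 of effective library size. Genes were called at an adjusted p limit of 0.05 with at least a 2-fold change. The test was tested on simulated data. Intervals are 95% and the floor for 0 reads is 3 counts. Replicates of a group differed by more than sampling noise, with a chi-square per degree of freedom of at least 4.54. Alternatives were DESeq2 1.42.0 as a test and for size factors, library totals alone, a stricter filter (mean of 50 counts) or none, no limit on the fold change, endosperm libraries alone, and each endosperm library left out. Similar sequences were sought with blastn 2.17.0 (e-value up to 0.001). Positions are from TAIR10.1. Of the gene identifiers, 27390 of 27588 matched its annotation, and 27688 of 28244 in the allele table.

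The members, the lists and the tests were chosen with earlier results of these data known. Genes named are the 3 members, all annotated genes within 25000 bases of AT1G67105, listed LBD class II and cytokinin genes, the 8 loci most like AT1G67105 and the 5 most like LBD40 by Pearson's r. No such loci are given for CYP735A2, which rests on 5 counts. CYP735A2 was planned for the edgeR test but did not pass its filter.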

Additional observations from a re-analysis of the deposited data

How the results depend on the processing

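The difference of AT1G67105 in Col-0 reads (163 CPM), which the h1/H1 mean sets, moved by less than 1 SD of its replicates under all 10 alternatives that give one (DESeq2's test gives none). Its fitted log2 fold change, which depends on the prior count and is given with no test, was 7.97 with all libraries, 7.19 without A and 10.12 without B. The difference of CYP735A2 was -0.034 CPM, -0.11 without A and 0.044 without B, a turn of direction at 5 counts in all. LBD40 was not called under any of 11 alternatives (adjusted p 0.9498 to 1), but its log2 fold change ranged from -0.50 to 0.096 with a library left out, above 0 without B (0.096), C (0.0029) or E (0.0052). No gene within 25000 bases and no listed gene was called under any of 12 alternatives. Counts over all genes moved. DESeq2's Wald test called 50 genes in total counts and 11 loci in Col-0 reads, and no filter called 77 loci. With a library left out, total counts gave 0 to 109 calls and Col-0 reads 0 to 43. The highest were without A (109 and 43), then without B (9 and 15), where the lone H1/H1 library is assumed to vary like the others. Without C or E no locus was called in Col-0 reads (0), with AT1G67105 at a log2 fold change of 7.97 and 7.86. The cause was not tested. No paired analysis was possible because the columns carry no replicate number. The H1/H1 endosperm level of AT1G67105 rests on 1 read in 2 libraries, which limits its ratio.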

Other observations

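A few other loci also passed from near absence to presence in Col-0 reads. These loci, chosen after their values were seen and given with no test, had at most 1 Col-0 read in each library of one endosperm group and at least 5 in each of the other. There were 6 of 28244 with reads in h1/H1 endosperm and 13 with reads in H1/H1 endosperm. The limits are raw reads, and the h1/H1 libraries held 705347 to 842847 Col-0 reads, against 924897 and 1013458 with wild-type mothers. The sizes of the 6 and the 13 are therefore not comparable. AT1G67105 was the 1 locus with at least 10 reads in every h1/H1 library and at most 1 in each H1/H1 library. The other 5 of the 6 were AT3G45430, AT3G56060, BAP1, AT4G12100 and AT4G25160, with 5 to 14 reads from mutant mothers. In total counts, AT4G12100 had 22 and 20 from wild-type mothers and 87, 48 and 80 from mutant mothers, while BAP1, a membrane-associated inhibitor of cell death, had 193 and 231 from wild-type mothers and 271, 476 and 318 from mutant mothers. Among the 13, AT5G65920 had 10 and 15 Col-0 reads from wild-type mothers and 0, 1 and 1 from mutant mothers, but 207, 1094, 196, 84 and 683 total counts in A to E, so its total counts overlapped between the groups. UBC1, a ubiquitin-conjugating enzyme, had 7 and 9 Col-0 reads against 0, 1 and 1, with 2819 or more total counts in every library used for these groups.

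LBD40 was followed most closely in total counts by AT5G67490 (Pearson's r = 0.998 over 6 libraries), AT1G10110, RNS1, AT2G40480 and ZF3 (r = 0.982). RNS1, a secreted ribonuclease, was at 1024 and 1347 CPM from wild-type mothers and at 751, 1526 and 793 CPM from mutant mothers, high in D and B like LBD40. The r values are a description of 6 libraries, and 110 of 18950 genes had r above 0.9.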
